A study of Mus musculus with 2 samples.

Results

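The complement components and regulators described here are 9 of the 22911 genes that could be named on the arrays: C3, C4b, Cfb, Cfp, Cfi, C5ar1, C3ar1, Cd55 and Cr1l. They were chosen by name as factors, receptors and membrane regulators of complement, through the RefSeq accession of each probe. Earlier results of these data were known at that point. They have 16 probes, and all 16 were well above background on both arrays. Of all named genes, 60.0% were measured on both arrays. Whether detection entered the choice of the members is not known here, so their full detection is not read as a result. The RNA came from regulatory T cells (Tregs) of mouse kidney, sorted as CD45+CD3e+CD4+FoxP3-hCD2+ cells 28 days after induction of cGN with antibody against the glomerular basement membrane (anti-GBM), so all samples share the reporter and the disease. FoxP3-hCD2 is a reporter that marks cells expressing Foxp3 with human CD2. The samples are 2, made with anti-GBM lot I and anti-GBM lot M, and the submitters state that disease severity varied with the lot. The number of mice behind each sample, their strain and their age are not given in the sources used here, and no sample without induced disease was analysed here.

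The sources disagree on which array belongs to which lot, so the arrays are called by number. The scanner output files array 1 with lot I and array 2 with lot M, and the deposited value table holds them the other way round. Every difference below is array 2 minus array 1 on the log2 scale, and a level is the processed signal relative to the 75th percentile of its array, as log2. Array 1 had 54.0% of its 56605 probes well above background and array 2 also 54.0%. The scanner software passed array 1 as in range and marked array 2 for evaluation, because the spike-in detection limit there fell outside its accepted values, and the part of this in the differences was not tested. With 1 array per lot there is no replicate and no test. The error given with a difference is the scanner software's error for the spots, which holds no variation between mice or lots. In sorted-cell RNA, fewer cells of a type and less RNA per cell cannot be told apart.

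Complement is a cascade of plasma proteins that marks targets for removal and drives inflammation. Antibody bound in the glomerulus can start the classical pathway through C1, C4 and C2. C3 is the component on which all pathways converge, factor B forms the alternative pathway convertase with C3b, and properdin stabilises that convertase. Factor I cleaves C3b and C4b together with cofactors. The fragments C3a and C5a act on the receptors C3ar1 and C5ar1. Cd55 (decay-accelerating factor) and Cr1l (Crry, a rodent regulator) protect the cell's own membrane from C3 convertases. Most complement proteins in plasma come from the liver, and kidney tubular cells and macrophages also make several of them.

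The upstream sequence was looked up for all members, and RefSeq's promoter table (GRCm38.p6) held it for C3, Cfp, C3ar1, C5ar1, Cd55 and Cr1l. Of C3, C4b, Cfb and Cfi, which were higher in array 2, it held only C3, the one with the smallest difference. The 250 bases before the start are shown for C3 and for the 2 membrane regulators, whose levels were close. All 3 read 5′ to 3′ on the minus strand, and capitals mark matches to the motifs searched. They are chr17:57228137-57228386 for C3, chr1:130462745-130462994 for Cd55 and chr1:195131571-195131820 for Cr1l.
C3: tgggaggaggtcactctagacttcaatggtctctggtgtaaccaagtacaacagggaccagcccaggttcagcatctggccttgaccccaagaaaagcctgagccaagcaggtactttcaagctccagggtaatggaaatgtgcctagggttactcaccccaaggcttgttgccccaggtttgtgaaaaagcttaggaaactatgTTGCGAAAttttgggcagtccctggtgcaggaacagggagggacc
Cd55: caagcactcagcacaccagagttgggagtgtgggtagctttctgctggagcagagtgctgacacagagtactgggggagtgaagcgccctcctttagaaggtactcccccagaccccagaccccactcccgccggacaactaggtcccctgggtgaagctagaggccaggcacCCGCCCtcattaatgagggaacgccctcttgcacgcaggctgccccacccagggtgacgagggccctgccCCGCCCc
Cr1l: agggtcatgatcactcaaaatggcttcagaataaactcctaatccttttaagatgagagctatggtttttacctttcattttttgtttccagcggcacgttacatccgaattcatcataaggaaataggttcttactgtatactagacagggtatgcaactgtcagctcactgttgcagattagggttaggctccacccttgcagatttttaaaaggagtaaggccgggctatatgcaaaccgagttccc
The search covered both strands for a TATA box (TATAAA), C/EBP (TTGCNNAA), a gamma-activated site (TTCNNNGAA), an E-box (CACGTG), a GC box (GGGCGG) and an ETS core (CCGGAA). C3 had 1 match, to C/EBP, 45 to 38 bases before its start, a motif that 9.56% of all 32851 promoters hold in the same window. Cd55 had 2 GC boxes, a motif in 32.7% of promoters, and Cr1l had no match. C3ar1 held a TATA box and a GC box, and neither Cfp nor C5ar1 held any of these letters. A match describes the letters and no binding was measured. A pair of longer motifs, for NF-kB and for interferon-stimulated response elements, was also searched in the same windows and is not reported here.

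The soluble factors C3, C4b, Cfb and Cfi were all higher in array 2, by 1.93-fold to 2.88-fold. C3 gave a processed signal of 1112 on array 1 and 2193 on array 2 with its brighter probe, and of 641 and 1156 with the other. Both C3 probes were thus higher in array 2, by 1.01 and 0.88, and the gene's difference was 0.95 ± 0.14. C4b, the complement component C4 of the classical and lectin pathways, had signals of 152 and 334 with one probe and of 27.8 and 59.7 with the other. Its probes differed by 1.17 and 1.14, and the gene by 1.15 ± 0.16. On array 1 the dimmer C4b probe lay only 1.25 above the lowest level among probes well above background. C4b has a close copy, C4a, whose own probe did not clear background on either array, so how far C4a RNA adds to the C4b probes is uncertain.

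Cfb encodes factor B. One of its probes had a signal of 240 on array 1 and 460 on array 2, and a further probe, designed on another RefSeq transcript, had 48.9 and 121. Both were higher in array 2, by 0.97 and 1.34, with a gene difference of 1.16 ± 0.15. Cfi encodes factor I, the protease that inactivates C3b and C4b, and has 1 probe, with a signal of 31.5 on array 1 and 88.8 on array 2. Its difference of 1.53 ± 0.25 was the largest of the 9 members. On array 1 that probe lay 1.44 above the detection floor (the lowest level among probes well above background), and on array 2 it lay 2.92 above it. The differences of these 4 genes were 6.15 to 7.68 times the scanner error, which is the error of spots and not of samples.

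**Figure D1:**
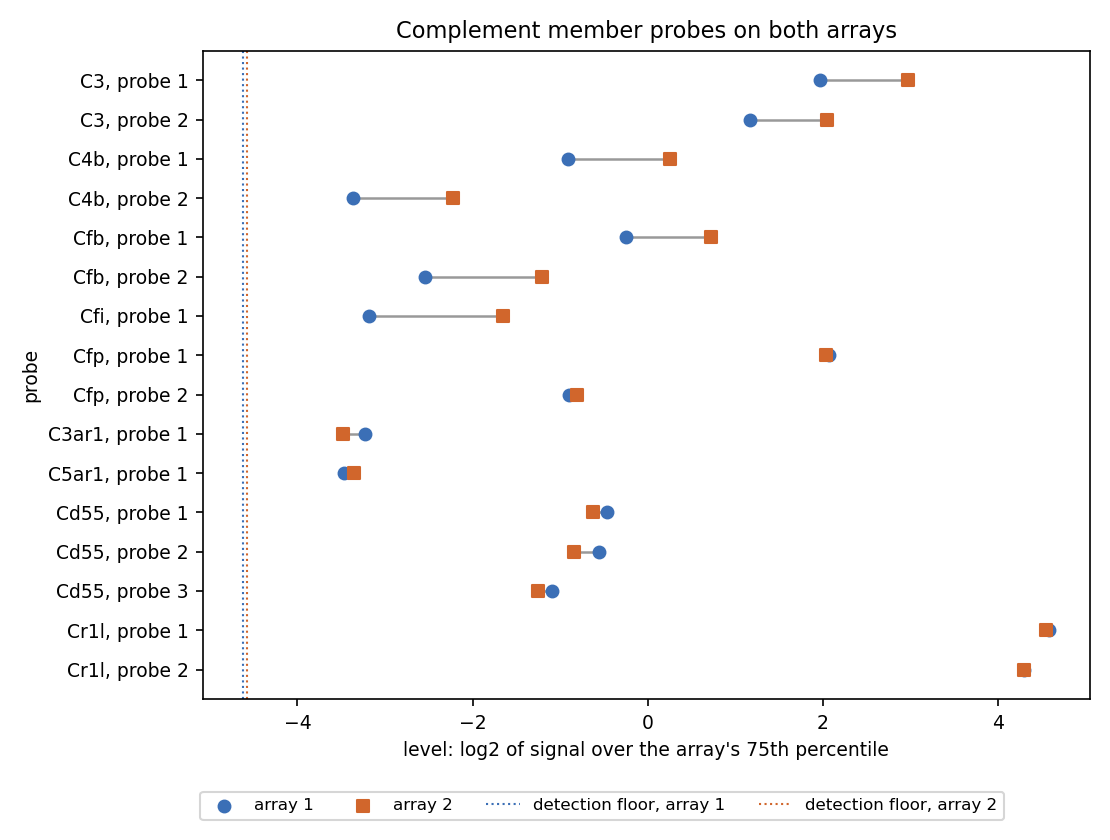
Level of each complement probe (log2, relative to the 75th percentile of its array) on array 1 (circles) and array 2 (squares), with the detection floors at -4.62 and -4.58 as dotted lines. All 7 probes of C3, C4b, Cfb and Cfi lie further right on array 2, by 0.88 to 1.53, while those of the other 5 members lie within 0.28 of each other.

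Properdin, encoded by Cfp, was at the same level on both arrays within its error. Its brighter probe had a signal of 1200 on array 1 and 1142 on array 2, and the other had 153 and 160.0. The gene differed by 0.03 ± 0.15, with 1 probe slightly lower and 1 slightly higher in array 2. Properdin is made mainly by leukocytes, and the source of the RNA of these factors was not tested.

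The anaphylatoxin receptors were dim. C3ar1, the receptor for C3a, had a signal of 30.5 on array 1 and 25.1 on array 2, a difference of -0.25 ± 0.27. C5ar1, the receptor for C5a, had 25.8 and 27.3, a difference of 0.11 ± 0.30. Each has 1 probe, each lay no more than 1.39 above the detection floor on both arrays, and neither difference exceeded its error. C5ar2, the second receptor for C5a and the neighbour of C5ar1 on the chromosome, had levels of 0.47 and 0.39 and differed by -0.08 ± 0.20.

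Both membrane regulators were close between the arrays. Cr1l gave strong signals, 6860 on array 1 and 6511 on array 2 with one probe and 5609 and 5490 with the other, and differed by -0.02 ± 0.14. Its levels were 4.44 and 4.42. Cd55 was measured with 3 probes, with signals of 207 and 181, of 193 and 156, and of 134 and 117 on arrays 1 and 2. All 3 Cd55 probes were lower in array 2, by 0.28 to 0.16, and the gene differed by -0.20 ± 0.12. Cd55b, a close copy of Cd55, differed by 0.01 ± 0.21 with its 1 measured probe, and the probes of the pair may share RNA.

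By size, 3 of the 9 members (C4b, Cfb and Cfi) were 2-fold or more higher in array 2, where 1.34% of the 13743 genes measured on both arrays were. None of the 9 was 2-fold or more lower, where 0.0873% of all genes were, and this imbalance was smaller with no filter on dim probes (648 higher and 399 lower). C3, at 1.93-fold, lay just under the limit. With normexp background correction, C4b (0.70), Cfb (0.79) and Cfi (0.77) all stayed under 2-fold, and with the brightest probe for each gene C3 (1.01) passed it and Cfb (0.97) did not. Ranked from the highest difference among the 13743 genes, Cfi stood at 23, Cfb at 103, C4b at 104 and C3 at 224. Dim genes passed the limit more often: 2.5% of genes with a mean level under the 75th percentile were higher in array 2 by that much, and 0.449% of those at or over it. C4b, Cfb and Cfi belong to the first kind and C3 to the second. The median difference of the 9 members was 0.11, against 0.01 for all genes, and was between 0.03 with normexp and 0.49 over the 6 members left by a stricter filter on dim probes. It joins 4 genes between 0.95 and 1.53 with 5 between -0.25 and 0.11.

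**Figure D2:**
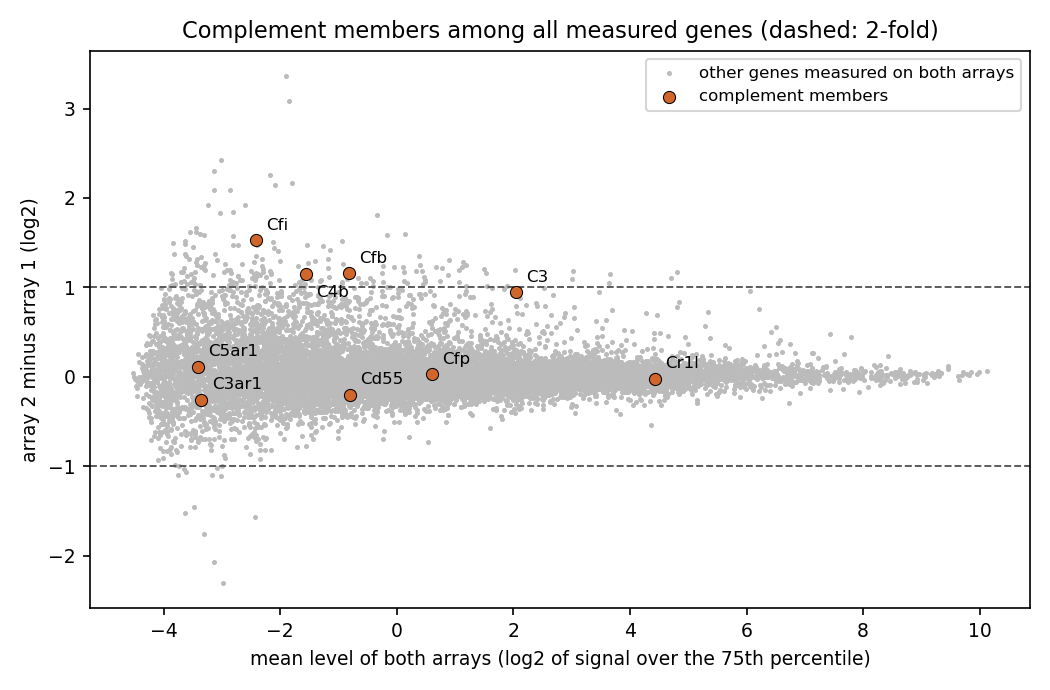
Difference between the arrays (array 2 minus array 1, log2) against the mean level of both arrays (log2 of signal over the 75th percentile) for all 13743 genes measured on both arrays, with the 9 complement members marked and 2-fold shown by dashed lines. C4b, Cfb and Cfi lie above the upper line, C3 at 0.95 lies just under it, and the other 5 lie between -0.25 and 0.11.

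Cfb and C4b share a place on the chromosome with C2, the component that pairs with C4 in the classical pathway convertase. The 3 genes lie in class III of the major histocompatibility complex, by the gene order of RefSeq. C2 had levels of -0.95 on array 1 and 0.12 on array 2 and differed by 1.08 ± 0.21. The 5 other measured genes from C4b to C2 have no role in complement: Cyp21a1, Stk19, Dxo, Skiv2l and Nelfe. Their differences lay between -0.03 and 0.01. Among these neighbours, the RNA helicase gene Skiv2l had levels of 1.77 and 1.76, and Nelfe, a subunit of the negative elongation factor, had 1.18 and 1.19. In this stretch the 3 measured complement genes were higher in array 2, and the 5 measured genes between them differed by less than their errors. C4a, which also lies there, did not clear background. The 5 were chosen by position alone, after the values of the members were known.

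**Figure D3:**
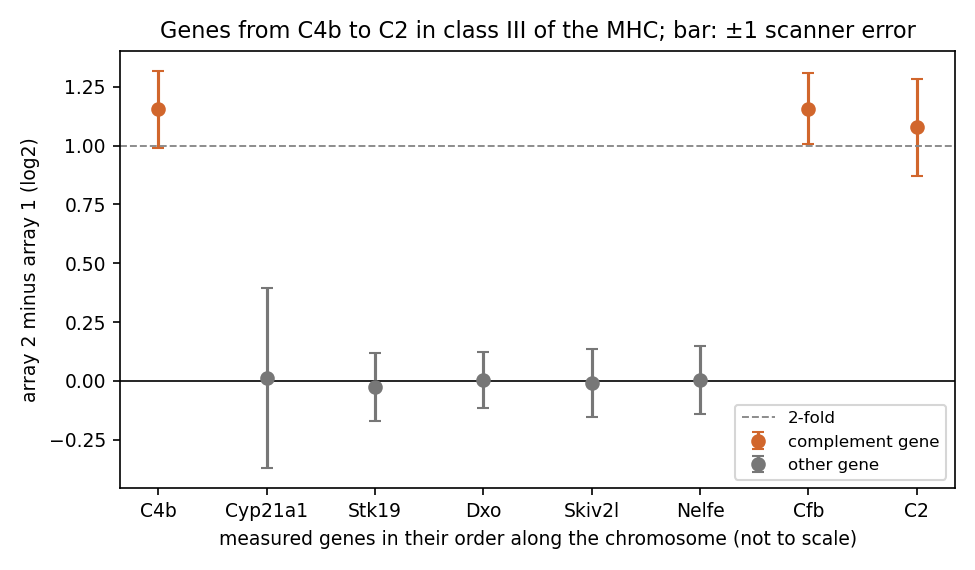
Difference between the arrays (array 2 minus array 1, log2) for the 8 measured genes from C4b to C2, in their order along the chromosome and not to scale, with bars of 1 scanner error on each side. C4b, Cfb and C2 lie between 1.08 and 1.16, and the 5 genes between them lie between -0.03 and 0.01.

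Of 48 further complement genes, 25 were measured on both arrays, 1 on array 2 only and 22 on neither. Over all named genes, 13743 of 22911 (60.0%) were measured on both arrays, so genes below background were common beyond complement too. Among the 25, 20 were higher in array 2 and 5 lower, where 7390 of all 13743 genes were higher and 6353 lower. The median difference of the 25 was 0.24, which was 0.12 with normexp and 0.04 over all 48 with no filter on dim probes. C2 and Cpn1 passed 2-fold, both higher in array 2, which is 2 of 25 beside the 1.34% of all genes, and 4 of 25 were 1.5-fold or more higher, beside 5.15% of all genes. Cpn1, the catalytic subunit of the carboxypeptidase that inactivates C3a and C5a, differed by 1.02 ± 0.24. Cpn1 fell short of 2-fold with spike-ins as scale (0.96), with no scaling (0.99) and with lowess centring (0.99), and was not measured under a stricter filter. With normexp both C2 (0.75) and Cpn1 (0.44) fell short. Of the other 2 past 1.5-fold, C8g, a subunit of the terminal component C8, differed by 0.64 ± 0.21. Cd59a, a membrane inhibitor of the terminal complex, differed by 0.66 ± 0.20. No gene of the 25 was 1.5-fold or more lower, where 0.815% of all genes were.

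The recognition part of the classical pathway was present through C1q. C1qa, C1qb and C1qc, its 3 chains, had differences of 0.28 ± 0.20, 0.36 ± 0.20 and 0.42 ± 0.20. Of the C1 proteases, C1ra, C1rb and C1s2 did not clear background on either array. C1s1 was well above background on array 2 only, at a level of -3.85, near the floor there of -4.58. That level was 1.70-fold above the floor of array 1, with no allowance for the scanner error of its difference, 0.48. Of the 8 listed genes of the lectin pathway, 7, among them Mbl1, Mbl2, Masp1 and Masp2, did not clear background on either array, and Colec11 was measured at a level near the floor. Of the terminal pathway, Hc, which encodes C5, differed by 0.38 ± 0.26 and C7 by 0.13 ± 0.39, while C6, C8a, C8b and C9 did not clear background on either array. Cfd, the protease that activates factor B, did not clear background on either array.

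Among soluble regulators, Serping1, the C1 inhibitor, differed by -0.09 ± 0.25. Clu, which encodes clusterin and is also made by injured tubules, had levels of 3.77 and 4.07, a difference of 0.30 ± 0.20. The complement receptor integrins showed small differences: Itgb2, the shared beta chain, differed by 0.06 ± 0.20 and Itgam by -0.11 ± 0.20. C1qbp, a mostly mitochondrial protein that binds C1q, differed by 0.06 ± 0.20.

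**Figure D4:**
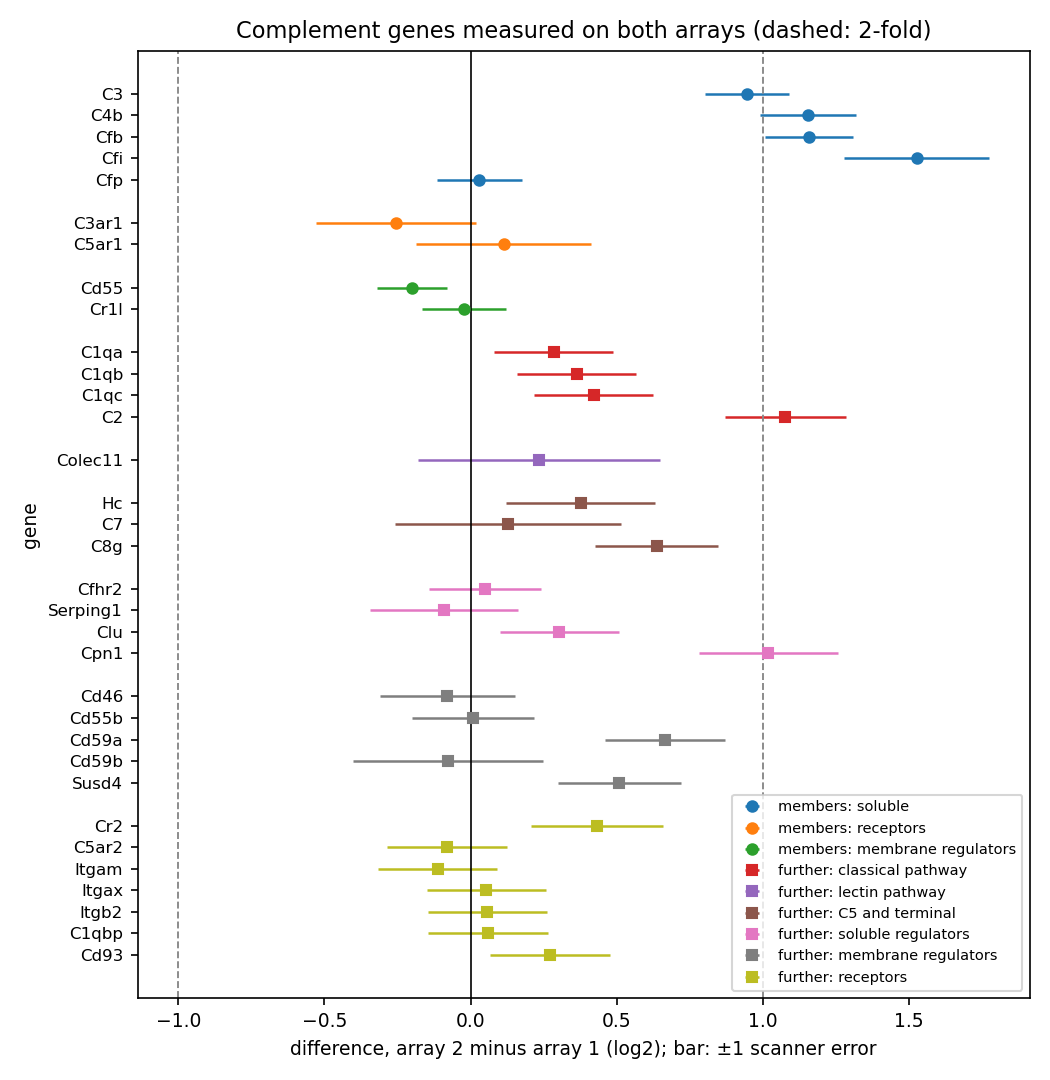
Difference between the arrays (array 2 minus array 1, log2) for the 9 members (circles) and 24 of the 25 further complement genes measured on both arrays (squares), grouped by role, with bars of 1 scanner error on each side and dashed lines at 2-fold. C4b, Cfb, Cfi, C2 and Cpn1 lie beyond the right line, and no gene lies beyond the left one.

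Markers of kidney tubules were higher in array 2, as were C3, C4b, Cfb and Cfi but not Cfp. The sort selected T cells, yet all 12 proximal tubule markers passed the background flag on each array, and 11 were higher in array 2, 10 of them 2-fold or more. Their median difference was 1.18, and their summed level, as a multiple of the 75th percentile, was 91.8 on array 1 and 189 on array 2, a ratio of 2.06. Slc5a2, the glucose transporter SGLT2, differed by 1.59 and Slc13a3, a dicarboxylate transporter, by 1.21. The summed level of the 5 soluble members, Cfp included, was 5.17 on array 1 and 8.89 on array 2, a ratio of 1.72. Most of it came from C3 (log2 levels 1.56 and 2.51). For all 9 members the summed level was 27.7 and 31.0, a ratio of 1.12, and most of it came from Cr1l (log2 levels 4.44 and 4.42). Every one of the 10 distal nephron and collecting duct markers had a higher level in array 2 (median 0.67). Their summed level was 155 on array 1 and 229 on array 2, and the largest differences were in Aqp2 (1.60) and Pvalb (1.41). The part of tubular RNA in the complement differences was not tested.

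Macrophage and monocyte markers, all 12 measured, had a median difference of 0.23 with 11 higher in array 2, led by Adgre1 (0.46) and Apoe (0.41), and a summed level of 115 and 121. They lie beside the C1q chains at 0.28 to 0.42, and their part in those was not tested. Ctss (levels 6.47 and 6.46), which differed by -0.01, made up most of the macrophage and monocyte sum. All 10 genes of the interferon gamma response list were lower in array 2 (median -0.22), with a summed level of 167 and 145. The largest differences there were in Cxcl9 (-0.69) and Iigp1 (-0.41). Of all 13743 genes, 7390 were higher in array 2 and 6353 lower.

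The T cell and Treg markers were close between the arrays, with medians of -0.02 over 11 of 12 genes and 0.03 over 10 of 10. Their summed levels were 1009 and 1010.4 for T cells, where Cd247 (-0.15) and Cd3e (0.11) differed most, and 465 and 463 for Tregs, where Foxp3 (-0.17) and Areg (-0.16) did. Of the remaining lists, endothelial markers had a median of -0.02 over 7 of 8 genes (summed level 7.76 and 7.64). Ehd3 (levels 2.08 and 2.07) made up most of the endothelial sum. Cdh5 differed by -0.43 ± 0.35 and Plvap by 0.34 ± 0.22, and Tek was below the background flag on both arrays. Fibroblast and mesangial markers had 0.26 over 4 of 8 (7.01 and 7.90). Acta2 (levels 2.71 and 2.88) made up most of the fibroblast and mesangial sum. Dcn differed by -0.41 ± 0.28 and Col1a2 by 0.40 ± 0.22. Pdgfrb and Lum were below the flag on both arrays, Col3a1 on array 1 and Postn on array 2. Neutrophil markers had 0.34 over 4 of 8 (8.09 and 10.4), a sum that came mostly from S100a9 (levels 2.68 and 3.06). Retnlg differed by 0.98 ± 0.37, with a level of -4.40 on array 1, near the floor of -4.62, and S100a9 by 0.39 ± 0.20. Cxcr2 and Camp were below the flag on both arrays and Mpo on array 2. Dendritic cell markers had -0.21 over 6 of 7 (109.9 and 97.5). Most of that sum came from Siglech (levels 6.39 and 6.25) and Itgae (4.62 and 4.36). The list's median lay between the differences of these genes, -0.15 for Siglech and -0.27 for Itgae. The other measured genes of the list were dim, the brightest being Cd209a (-0.35 and -0.64). Which cells the Siglech and Itgae RNA came from was not tested, so the sum is not read as dendritic cell RNA. The largest differences were in the dim genes Zbtb46 (-0.51 ± 0.21) and Flt3 (0.37 ± 0.21), and Xcr1 was below the flag on array 2. B and plasma cell markers had 0.09 over 7 of 8 (8.08 and 7.05). Ms4a1 differed by -0.39 and Sdc1 by 0.38, and Pax5 was below the flag on array 2. Cd79b (levels 2.565 and 2.256) made up most of the B and plasma cell sum and differed by -0.31 ± 0.20. Cr2, the B cell complement receptor, differed by 0.43 ± 0.23. Of the podocyte markers, Nphs1, Podxl and Wt1 did not clear background on either array, and Synpo differed by -0.05 ± 0.17.

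**Figure D5:**
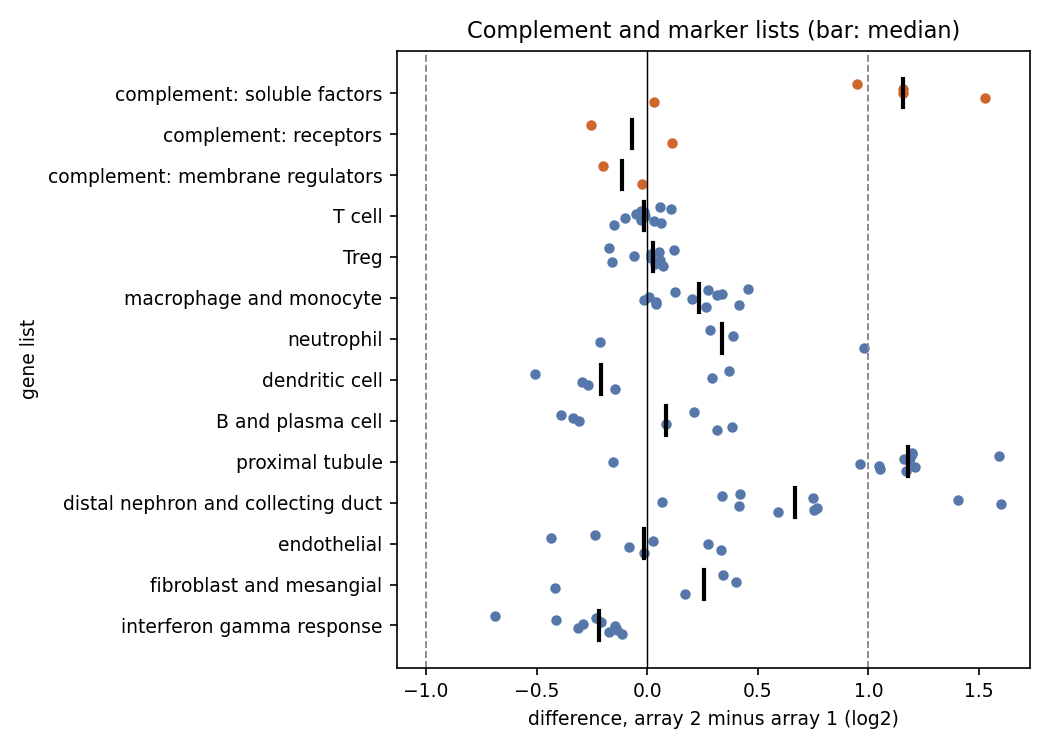
Difference between the arrays (array 2 minus array 1, log2) for the 9 complement members by role and for each measured gene of 11 lists, 1 point a gene, with the median as a black bar and 2-fold as dashed lines. The 5 soluble factors spread from 0.03 (Cfp) to 1.53 (Cfi), the receptors and membrane regulators lie between -0.25 and 0.11, and the proximal tubule list has the highest median of the 11 marker lists, 1.18.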

How the data were processed

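Cy3-labelled total RNA of the sorted cells was put on 1 single-colour Agilent array per lot, per the labels' protocols, and read with Agilent Feature Extraction 10.7.1.1, per the submitters' processing notes. The deposited processed signal is an intensity that the scanner software had background-corrected and detrended, per the file headers. The deposited raw median intensities served the normexp alternative, and other flags, of 0 or 1 per the file headers, gave detection and outliers. The deposited value table holds a linear ratio per probe (column medians 0.070 and 0.069). The authors' way of making it is not given here. The value table was compared with the scanner output over the brighter probes only (13919 on array 1 and 13802 on array 2). There it equals the processed signal over a constant, with the columns exchanged between lots. The SD of the log2 quotient was 0.000162 and 0.000158, against 0.156 and 0.181 by label. For these probes scale and centring are thus known and direction is not.

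Log2 signals were centred on the 75th percentile of each array's non-control probes (285.6 and 279.5). Of 62976 spots, 3671 controls and 75 and 56 outlier spots were left out, and none was saturated. Probes were named by RefSeq accession (GRCm38.p6, used for names and gene order because the array design names another build), 32994 of 56605 with 1 symbol. A gene's difference averages those of its probes that were well above background on each array. Both arrays share slide, scan and feature extraction settings per the file headers, but their days of induction, sort and labelling are not known here. The number of arrays limits the precision. Members, lists and alternatives were chosen with earlier results of these data known. Named genes were all members, further genes past 1.5-fold, on 1 array only or among the 6 brightest, the C1q chains, and 2 genes with the largest differences per marker list. The other genes named for detection, for level, for position or as regulators and copies of members were chosen after their values were seen. Alternatives were normexp in limma 3.58.1 (offset 50), other scalings, quantile normalisation, lowess centring (span 0.3), other filters and flags, the brightest probe, the value table and fold limits of 1.5 and 4. Some genes of the lists are not reported here. The motif set was reduced after its matches had been seen. The gene-level step was tested on simulated data.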

Additional observations from a re-analysis of the deposited data

How the results depend on the processing

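No paired analysis was possible because each lot has 1 array. The directions of C3, C4b, Cfb and Cfi held under all alternatives but the value table, where C3 (-0.95), C4b (-1.16), Cfb (-1.16) and Cfi (-1.52) turned sign because its columns are exchanged between lots. There the median of the 9 members was -0.12 and that of the further complement genes -0.24. The count of members at 2-fold or more fell from 3 to 0 with normexp (C4b 0.70, Cfb 0.79, Cfi 0.77), which also starts from another signal, and to 0 at a 4-fold limit. The cause of the normexp change was not tested. With the brightest probe per gene it was again 3, with C3 (1.01) in place of Cfb (0.97). The stricter filter on dim probes left 6 members, without Cfi, C5ar1 and C3ar1, and a median of 0.49, against 0.11, while normexp (0.03), spike-ins as scale (0.06) and lowess centring (0.06) lowered it. Of the 25 further complement genes, 2 differed 2-fold or more, and 0 with normexp or a 4-fold limit. The count was 1 with spike-ins as scale, no scaling or lowess centring, and 4 at a 1.5-fold limit. With the stricter filter it was 1 of 18. With the positive and significant flag it was 5 of 31 (4 higher and 1 lower), and with no filter 8 of 48 (7 higher and 1 lower). Over all 13743 genes the count of 196 became 28 with normexp, 820 at 1.5-fold and 11 at 4-fold. With the stricter filter it was 85 of 11830. With the positive and significant flag it was 669 of 16125 (440 higher and 229 lower), and with no filter 1047 of 22911. Apart from the value table, Cfp ranged from -0.04 to 0.04 and C3ar1 from -0.31 to 0.01, so their signs depend on the processing. Signals near the floor limit what Cfi, C5ar1, C3ar1, Cpn1 and the dimmer C4b probe can show. Under the stricter filter C4b rested on 1 probe (1.17).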
